A study of Arabidopsis thaliana with 12 samples.

Results

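Roots of the Arabidopsis thaliana ecotype Or-1 were compared after 1 d on NH4+ or on NO3-, and the responses of all genes were taken from 6 of the 12 libraries of the series. The members are the 3 libraries labelled NH4+ and the 3 labelled NO3- of the NH4+-tolerant ecotype, which GEO's labels call ecotype 2 and the study calls Or-1. Seedlings of both groups were raised for 5 d on nitrate. They were then kept for 3 d without nitrogen, a step taken from the methods text that the labels do not name. One group then received 1 mM Ca(NO3)2 and the other 1 mM (NH4)2SO4 for 1 d, so that the NH4+ solution held more sulfate, and sulfate and the form of nitrogen cannot be told apart in this design. By the methods text, calcium was brought to the same concentration in both solutions and their pH was buffered with MES. The other 6 libraries come from the NH4+-sensitive ecotype Rak-2 under the same treatments. They enter here only through the shared filter on low counts, scaling and estimate of spread and through comparisons of the response. The libraries were deposited as biological replicates of whole roots, several plants were grown in 1 pot, and both ecotypes are natural accessions.

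Roots take up NO3- through NRT transporters and reduce it to NH4+ with nitrate reductase in the cytosol and nitrite reductase in plastids, a route that needs reductant. NO3- is also a signal that induces these genes within hours. NH4+ enters through AMT transporters and is fixed at once into glutamine and glutamate, and its uptake releases protons and acidifies the medium. As a sole nitrogen source it restricts root growth in many plants, and the ecotypes of Arabidopsis differ in how well they tolerate it.

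Gene counts summed to between 18500416 and 22388738 in the NO3- libraries and between 19962042 and 20565302 in the NH4+ libraries. Of 26568 genes in the table, 19327 passed the filter on low counts and were tested. A gene was called when the edgeR quasi-likelihood test gave a Benjamini-Hochberg adjusted p under 0.05 and the absolute log2 fold change was over 1. Levels are CPM, a gene's share of the counts of its library after TMM scaling, given library by library or as mean ± SD (n = 3 per group), and fold changes are NH4+ over NO3- on the log2 scale with their standard errors (SE). Correlations of log2 levels across genes ran from 0.971 to 0.988 among the NH4+ libraries, from 0.964 to 0.983 among the NO3- libraries and from 0.929 to 0.951 between the groups. Root meristem markers were present in every library, with a summed level of 113 to 186 CPM under NO3- and 133 to 181 CPM under NH4+. Photosynthesis genes, which mark shoot tissue, summed to 225 to 895 CPM under NO3- and to 32 to 414 CPM under NH4+. None of the 12 tested was called by edgeR, DESeq2 or limma-voom, 0 had an unadjusted p under 0.05, all 12 had negative estimates, and the ranges of the 2 groups overlapped.

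NH4+ changed 1712 genes in Or-1, 8.86% of those tested. Of these, 1016 were higher under NH4+ (5.26%) and 696 were lower (3.6%), and these shares are the background for every count below. The median log2 fold change of all tested genes was -0.04. Among the called genes 387 rose by more than 2 on the log2 scale and 297 had a log2 fold change under -2. In 1698 of the 1712 the 3 libraries of one group lay entirely above those of the other, a property that 36.5% of all tested genes shared. When each of the 6 libraries was left out in turn, 1110 of the called genes, 683 higher and 427 lower, were called in all 6 fits and 54 in none. Where a named call did not hold in all of these fits, the number that kept it stands after the locus, as in 5 of 6.

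**Figure D1:**
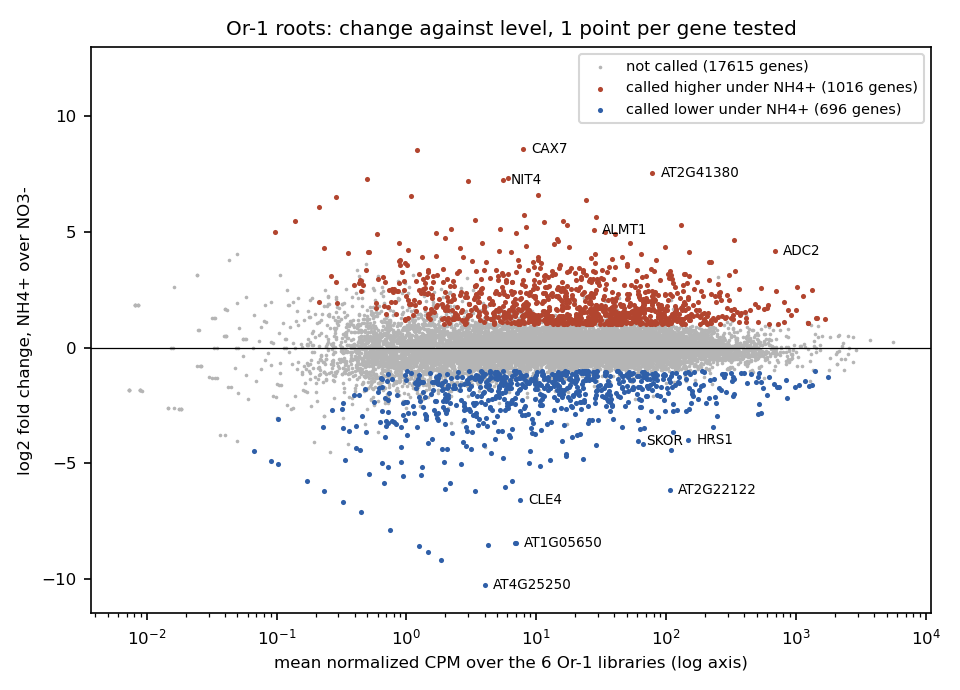
Log2 fold change (NH4+ over NO3-) of every tested gene in Or-1 on the vertical axis against its mean normalized CPM over the 6 libraries on a log axis, 1 point per gene, with the 1016 genes called higher, the 696 called lower and the rest in 3 colours. The largest changes in both directions lie at low and middle levels, where several named genes had almost no reads in one group.

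Several genes were near silent under NO3- and appeared under NH4+. CAX7 (AT5G17860), a cation exchanger of the CaCA family, had 0.11, 0 and 0 CPM under NO3- and 18.9, 15.6 and 12.5 CPM under NH4+. No NO3- library held more than 3 reads, and against a floor of 3 reads per library the gene was at least 94.8-fold higher under NH4+. NIT4 (AT5G22300), a nitrilase that detoxifies beta-cyanoalanine, had 0.0551, 0 and 0.132 CPM under NO3- and 15.3, 11.4 and 6.22 CPM under NH4+ and was at least 66.3-fold higher. TIL2 (AT2G27120), a catalytic subunit of DNA polymerase epsilon, was at least 35.9-fold higher, with 7.44, 5.69 and 4.67 CPM under NH4+. These 3 genes went from no or a few reads to levels seen in all 3 NH4+ libraries.

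Other large rises had more than 3 reads in some NO3- library, though not all of them started well above that floor. AT2G41380, annotated as a methyltransferase, had 1.82, 0.319 and 0.397 CPM under NO3- and 189.7, 178 and 98.2 CPM under NH4+, and its log2 fold change was 7.55 ± 0.58 (SE; edgeR adjusted p = 1.53e-05). OCT1 (AT1G73220), an organic cation transporter of the carnitine family, went from 0.564 ± 0.181 CPM under NO3- to 47.5 ± 9.77 CPM under NH4+. RNS1 (AT2G02990), a secreted ribonuclease, went from 0.289 ± 0.0767 CPM under NO3- to 15.8 ± 6.56 CPM under NH4+, and ATGLR1.2 (AT5G48400), a glutamate receptor-like channel, from 0.708 ± 0.307 CPM under NO3- to 31.2 ± 12 CPM under NH4+. All 3 were higher in every NH4+ library than in any NO3- library. AT2G29150, an NAD(P)-binding oxidoreductase, had a log2 fold change of 5.64 ± 0.66 and AT1G71140, a MATE efflux protein, one of 5.41 ± 0.43. LEA4-5 (AT5G06760), a late embryogenesis abundant protein of desiccation tolerance, had 0, 0.213 and 0 CPM under NO3- and a log2 fold change of 7.34 ± 0.82. AT4G37290, which is uncharacterized, had 0.276, 0.159 and 0 CPM under NO3- and a log2 fold change of 5.51 ± 0.65. The sizes of the LEA4-5 and AT4G37290 estimates rest on a few reads under NO3-. CYP71A13 (AT2G30770), an enzyme of camalexin synthesis, had 0.165, 0.319 and 0.132 CPM under NO3- and 15.5, 8.25 and 37.4 CPM under NH4+. Its reads may be shared with the near-identical CYP71A12, so the value of either gene alone is uncertain.

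The largest falls included cell wall genes and signal peptides. AT4G25250, a pectin methylesterase inhibitor, had 9.1, 6.22 and 8.69 CPM under NO3- and no read under NH4+, which makes it at least 52-fold lower. The neighbouring pectin lyase-like genes AT1G05650 and AT1G05660 were at least 90.1-fold and 55.5-fold lower, and reads may be split between these copies. AT2G21210, of the SAUR auxin-responsive family, was at least 89.4-fold lower, and CER4 (AT4G33790), a fatty acyl-CoA reductase that makes primary alcohols, at least 43-fold lower. AT2G22122, an uncharacterized protein, held 111, 242 and 277 CPM under NO3- and 2.38, 2.87 and 3.45 CPM under NH4+, a fall of 6.17 ± 0.41 on the log2 scale that no library contradicted. AT1G23160, of the GH3 family, had a log2 fold change of -6.04 ± 0.85, AT4G12520, a lipid-transfer-like protein, -5.76 ± 0.68, and AT5G04730, an ankyrin-repeat protein, -4.98 ± 0.43. Fewer cells of a type and less RNA per cell cannot be told apart in these whole-root libraries, here or in the results that follow.

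Promoters of the called genes were searched for short motifs of known transcription factors. Sequences were read from the RefSeq annotation of TAIR10.1, which is the Col-0 reference and not Or-1, over the 250 bases before the annotated gene start, and both strands were searched. The W box, bound by WRKY transcription factors, was searched as TTGACC or TTGACT. It occurred in 40.1% of the 1001 promoters of genes called higher, in 29.3% of the 679 of genes called lower and in 28.9% of the 18850 of all tested genes. The G box (CACGTG) was in 6.09%, 6.19% and 7.23% of the same sets, and the evening element (AAATATCT) in 4.5%, 4.42% and 4.79%. The GCC box (GCCGCC) was in 2.1%, 1.03% and 2.01%, and the AACGG core of the mitotic element in 17.4%, 16.8% and 21.5%. The site GAATATTC, bound by NIGT1 repressors, was in 2%, 0.884% and 0.881%. The phosphate element P1BS (GNATATNC), whose letters also cover GAATATTC, was in 6.59%, 6.92% and 5.47%. These shares are descriptions and no test was made of them.

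The promoters of 5 genes that rose are shown because each holds a pair of W boxes, and 1 of a gene that fell because it combines P1BS and NIGT1 letters. They were chosen after their values were seen, and capitals mark the motif on either strand.
NAC042 promoter (TAIR10.1 chr2:17882637-17882886, minus strand): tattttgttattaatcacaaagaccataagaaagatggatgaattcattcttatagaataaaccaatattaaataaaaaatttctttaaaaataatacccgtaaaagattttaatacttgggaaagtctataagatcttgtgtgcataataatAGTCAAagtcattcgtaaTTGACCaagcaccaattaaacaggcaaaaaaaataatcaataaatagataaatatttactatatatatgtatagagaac
CYP81F2 promoter (TAIR10.1 chr5:23187590-23187839, plus strand): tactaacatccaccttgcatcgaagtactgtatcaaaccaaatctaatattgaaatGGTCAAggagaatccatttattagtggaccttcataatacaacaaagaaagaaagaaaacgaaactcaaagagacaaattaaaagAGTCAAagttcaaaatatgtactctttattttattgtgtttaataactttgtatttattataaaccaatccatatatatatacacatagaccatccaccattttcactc
WRKY41 promoter (TAIR10.1 chr4:6758848-6759097, plus strand): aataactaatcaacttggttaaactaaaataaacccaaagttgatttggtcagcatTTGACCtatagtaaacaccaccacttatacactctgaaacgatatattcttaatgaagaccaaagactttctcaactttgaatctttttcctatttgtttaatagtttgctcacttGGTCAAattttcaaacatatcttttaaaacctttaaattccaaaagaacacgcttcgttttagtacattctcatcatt
WRKY33 promoter (TAIR10.1 chr2:16107985-16108234, plus strand): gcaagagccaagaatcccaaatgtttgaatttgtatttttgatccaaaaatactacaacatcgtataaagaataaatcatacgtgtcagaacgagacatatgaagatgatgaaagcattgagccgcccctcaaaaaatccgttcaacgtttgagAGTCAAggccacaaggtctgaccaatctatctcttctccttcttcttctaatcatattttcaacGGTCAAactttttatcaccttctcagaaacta
ATGLR1.2 promoter (TAIR10.1 chr5:19615816-19616065, plus strand): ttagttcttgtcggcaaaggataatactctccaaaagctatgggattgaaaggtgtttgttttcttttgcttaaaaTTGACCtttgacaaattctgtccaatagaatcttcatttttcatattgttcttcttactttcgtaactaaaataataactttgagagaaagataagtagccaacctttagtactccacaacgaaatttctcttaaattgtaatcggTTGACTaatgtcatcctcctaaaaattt
AT3G25790 promoter (TAIR10.1 chr3:9412802-9413051, plus strand): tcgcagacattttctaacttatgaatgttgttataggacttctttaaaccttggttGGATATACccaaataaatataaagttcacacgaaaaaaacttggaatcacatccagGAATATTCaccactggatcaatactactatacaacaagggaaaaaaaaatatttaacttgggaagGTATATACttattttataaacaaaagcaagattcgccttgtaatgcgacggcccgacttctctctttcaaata
The W boxes begin 97 and 79 bases before the gene start in NAC042, 194 and 109 in CYP81F2, 194 and 78 in WRKY41, 96 and 32 in WRKY33 and 174 and 28 in ATGLR1.2. The 3 P1BS matches of AT3G25790 begin 194, 138 and 73 bases before its start, and the one at 138 is also the NIGT1 site.

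Called genes of NO3- reduction and most called genes of NO3- transport and signalling were lower under NH4+. In the uptake list 3 of 13 genes fell, the high-affinity transporter NRT2.1 (AT1G08090), its partner protein NRT3.1 (AT5G50200) and the xylem loader NPF7.3 (AT1G32450, 4 of 6). NRT2.5 (AT1G12940, 2 of 6), a transporter of NO3--starved roots, rose from 0.227 ± 0.186 CPM under NO3- to 1.7 ± 0.88 CPM under NH4+. The reductases and the siroheme enzyme that nitrite reductase needs fell in 3 of 4, as did 5 of 10 genes that supply reductant to root plastids. The nitrate reductase NIA2 (AT1G37130) was not called, at 1237 ± 207 CPM under NO3- and 1521 ± 493 CPM under NH4+. Its log2 fold change was 0.3 ± 0.39 in Or-1 against -2.64 in Rak-2 (difference 2.94 ± 0.57, adjusted p of the difference by edgeR 0.0343). The medians of these lists were -0.14 for uptake, -1.86 for reduction and -1.02 for reductant.

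Among the signalling genes 9 of 24 fell and 3 rose, with a median of -0.39. HRS1 (AT1G13300), a NIGT1-type repressor that links NO3- and phosphate signals, had 169.8, 333 and 328 CPM under NO3- and 18.9, 18.8 and 14.4 CPM under NH4+. All NH4+ libraries were far below all NO3- libraries, and the fall was 3.99 ± 0.26 on the log2 scale (edgeR adjusted p = 6.70e-06). Its relative AT3G25790, a myb-like factor, had 8.77, 27.4 and 25.8 CPM under NO3- and 0.729, 0.513 and 0.535 CPM under NH4+, and the first NO3- library was the lowest of its group in both genes. The BTB and TAZ domain proteins BT1 (AT5G63160) and BT2 (AT3G48360), NO3--induced scaffold proteins, went from 207 ± 118 CPM under NO3- to 9.59 ± 1.79 CPM under NH4+ and from 127 ± 83.6 CPM under NO3- to 7.08 ± 3.81 CPM under NH4+. The NO3--induced repressors LBD37 (AT5G67420) and LBD39 (AT4G37540) fell by 1.66 and 2.27. TGA1 (AT5G65210, 5 of 6), a bZIP activator of NO3- responses, fell by 1.11, and ANR1 (AT2G14210, 0 of 6), a MADS factor of lateral roots, by 1.28.

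The NIN-like proteins, transcription factors that start the primary NO3- response, moved in both directions. NLP8 (AT2G43500), known for NO3--triggered germination, had 14.4, 7.02 and 6.09 CPM under NO3- and 69.1, 80.6 and 62.8 CPM under NH4+. It was low in every NO3- library and high in every NH4+ library, and rose by 2.95 ± 0.43 on the log2 scale. NLP4 (AT1G20640) rose by 1.28 and NLP5 (AT1G76350) by 1.33, whereas NLP3 (AT4G38340, 3 of 6) fell by 1.02. The call of NLP3 was lost when replicate number was added as a block (edgeR adjusted p = 0.00174, log2 fold change -0.99).

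Genes of primary glutamine synthesis moved in both directions, and those called further on in amino acid metabolism rose. Of 7 glutamine synthetase and glutamate synthase genes, 1 rose (GLN1;4 (AT5G16570), log2 fold change 1.72) and 1 fell (the plastid enzyme GLN2 (AT5G35630), -1.37). All 3 glutamate dehydrogenases, which release or fix NH4+, rose, with a median of 1.7. GDH2 (AT5G07440) rose by 1.7 ± 0.17, which was 1.27 ± 0.23 more than in Rak-2 (adjusted p of the difference by edgeR 0.0257). The differences of GDH1 (AT5G18170) and GDH3 (AT3G03910) were not called (adjusted p by edgeR 0.182 and 0.794). GDH3 had 1.6, 2.13 and 3.31 CPM under NO3- and 8.65, 11.5 and 42.4 CPM under NH4+. In the asparagine and GABA list 3 of 11 rose. The GABA transaminase POP2 (AT3G22200) went from 83.5 ± 6.2 CPM under NO3- to 439.7 ± 107 CPM under NH4+, the glutamate decarboxylase GAD1 (AT5G17330) from 515 ± 34.3 CPM under NO3- to 1092 ± 61.6 CPM under NH4+ and the asparaginase ASPGB1 (AT3G16150) from 2.67 ± 0.946 CPM under NO3- to 23.6 ± 5.99 CPM under NH4+. ASN1 (AT3G47340), the dark-induced asparagine synthetase, had 3.03, 5.48 and 14.7 CPM under NO3- and 20.6, 48.2 and 44.6 CPM under NH4+, and passed only with the replicate block (edgeR adjusted p = 0.0165).

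In the urea and arginine list 3 of 6 genes rose, an arginine decarboxylase the most. ADC2 (AT4G34710), which opens polyamine synthesis by making agmatine, had 96, 70.4 and 47.9 CPM under NO3- and 1546, 1376 and 986 CPM under NH4+. No NO3- library came near the NH4+ libraries, and the rise was 4.19 ± 0.27 on the log2 scale (edgeR adjusted p = 6.13e-06), 1.93 ± 0.33 more than in Rak-2 (adjusted p of the difference by edgeR 0.0213). Its paralogue ADC1 (AT2G16500, 4 of 6) rose by 1.03. DUR3 (AT5G45380), the high-affinity urea transporter, rose by 1.98.

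Proline genes rose in 3 of 8. The synthesis enzyme P5CS1 (AT2G39800, 5 of 6) rose by 1.16, the proline transporter PROT2 (AT3G55740, 1 of 6) by 1.25 and the second proline dehydrogenase, AT5G38710, by 2.31. In the amino acid transport list 2 of 17 rose. They were AT4G21120, the cationic amino acid transporter CAT1, by 2.37 and GDU2 (AT4G25760), a regulator of glutamine export, by 3.19. In the UMAMIT family of amino acid exporters 6 of 36 fell, 2 rose and the median was -0.12. UMAMIT35 (AT1G60050) had 29.1, 22.3 and 22.5 CPM under NO3- and 0.875, 0.205 and 1.41 CPM under NH4+, a fall of 4.87 ± 0.54, and UMAMIT36 (AT1G70260) fell by 3.09 and UMAMIT22 (AT1G43650) by 1.75. UMAMIT33 (AT4G28040) rose by 1.52. UMAMIT19 (AT1G21890, 3 of 6) was also called higher, from no more than 3 reads per NO3- library to 0.34, 0.359 and 1.31 CPM, and was lost without the third NH4+, the second NO3- or the third NO3- library, which left 1 higher member.

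Genes of acid soil and aluminium tolerance rose while their master regulator did not pass the test. Both solutions were buffered, and a part of pH in these rises was not tested. 5 of 11 rose, with a median of 0.94. PGIP1 (AT5G06860), a polygalacturonase inhibitor that stabilises cell walls at low pH, had 46, 19.8 and 9.88 CPM under NO3- and 735, 689 and 489.99 CPM under NH4+. The groups were far apart, and the rise was 4.66 ± 0.62 on the log2 scale (edgeR adjusted p = 0.000479). The malate channel ALMT1 (AT1G08430) rose by 5.09, the citrate exporter of the MATE family AT1G51340 by 3.92, STOP2 (AT5G22890) by 1.48 and the vacuolar half-size ABC transporter ALS1 (AT5G39040, 5 of 6) by 1.06. STOP1 (AT1G34370), the zinc finger factor that controls these genes, had 189.9, 169.6 and 149 CPM under NO3- and 139, 187 and 168 CPM under NH4+, and its log2 fold change was -0.04 ± 0.25.

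Of 9 plasma membrane proton pumps 2 rose. AHA3 (AT5G57350) went from 12 ± 1.24 CPM under NO3- to 64.3 ± 6.01 CPM under NH4+ and rose 1.46 ± 0.23 more than in Rak-2 (adjusted p of the difference by edgeR 0.0123). AHA7 (AT3G60330, 3 of 6) went from 52.1 ± 10.9 CPM under NO3- to 139 ± 23.5 CPM under NH4+, but without the third NH4+, the second NO3- or the third NO3- library it was not called and 1 pump was higher. Levels of the summed pumps were 3282 to 3605 CPM under NO3- and 2915 to 3151 CPM under NH4+, so the total read share of the family was lower under NH4+ although 2 members rose.

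In the potassium list 1 of 10 genes rose and 3 fell, with a median of -0.64. HAK5 (AT4G13420), the high-affinity K+ importer of potassium-starved roots, had 52.7, 22.1 and 16.7 CPM under NO3- and 548, 399 and 251 CPM under NH4+. Every NH4+ library exceeded every NO3- library, and the rise was 3.71 ± 0.68 on the log2 scale (edgeR adjusted p = 0.00345). SKOR (AT3G02850), the channel that releases K+ into the xylem, had 94.4, 123 and 124 CPM under NO3- and 6.86, 6.77 and 6.95 CPM under NH4+, a fall of 4.05 ± 0.26 with no overlap. The fall was stronger than in Rak-2 (difference -1.59 ± 0.33 on the log2 scale, adjusted p of the difference by edgeR 0.0404). The channel subunit KC1 (AT4G32650) fell by 1.13 and the calcium sensor CBL9 (AT5G47100, 5 of 6), which activates K+ uptake, by 1.18, so that the lower genes included uptake as well as release.

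Iron uptake genes fell together. Of 20 genes of uptake and its regulators 11 fell and 1 rose, with a median of -1.45 against -0.04 for all genes. Arabidopsis takes up iron by acidifying the soil, reducing Fe3+ with the reductase FRO2 and importing Fe2+ through IRT1, under the bHLH factor FIT. IRT1 (AT4G19690) had 73.3, 59.4 and 59 CPM under NO3- and 11.9, 8.15 and 8.36 CPM under NH4+, and FRO2 (AT1G01580) had 51.3, 44.2 and 42.3 CPM under NO3- and 5.15, 4.15 and 6.22 CPM under NH4+. In both genes all NH4+ libraries lay below all NO3- libraries, with log2 fold changes of -2.75 ± 0.47 and -3.15 ± 0.49 (edgeR adjusted p = 0.00228 and 0.00139).

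The regulators of these genes fell as well. FRU (AT2G28160), the gene of FIT, went from 56 ± 7.38 CPM under NO3- to 14 ± 2.82 CPM under NH4+. Its partners of the Ib subgroup, which are induced by iron deficiency, fell by 3.42 (BHLH38 (AT3G56970)), 1.43 (BHLH39 (AT3G56980)) and 3.66 (BHLH100 (AT2G41240, 5 of 6)). AT1G74770, a zinc finger protein of the BRUTUS-like family that restrains the iron response, fell by 1.96. NAS1 (AT5G04950), which makes the metal chelator nicotianamine, had 55, 147 and 168 CPM under NO3- and 11, 9.9 and 11.7 CPM under NH4+, a fall of 3.5 ± 0.36, and NAS2 (AT5G56080, 2 of 6) fell by 1.72 with groups that overlapped. The regulators MYB72 (AT1G56160, 2 of 6) and MYB10 (AT3G12820, 1 of 6) went from 1.13 ± 0.576 CPM under NO3- to 0.246 ± 0.256 CPM under NH4+ and from 1.75 ± 0.488 CPM under NO3- to 0.627 ± 0.126 CPM under NH4+, and both were called lower. FRD3 (AT3G08040), the citrate exporter that loads iron into the xylem, rose from 17.6 ± 2.54 CPM under NO3- to 58.3 ± 19 CPM under NH4+.

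Iron storage moved the other way, with 5 of 10 genes higher and a median of 0.9. FER1 (AT5G01600), the main ferritin of roots under iron excess, had 80.00, 89.1 and 81.7 CPM under NO3- and 548, 436 and 286 CPM under NH4+. The lowest NH4+ library was above the highest NO3- library, and the rise was 2.34 ± 0.25 (edgeR adjusted p = 0.000116). The vacuolar iron transporter-like genes VTL1 (AT1G21140) and VTL5 (AT3G25190) rose by 1.82 and 1.68, and NRAMP3 (AT2G23150), which returns iron from the vacuole, by 1.26. AT3G43660, also annotated in the vacuolar iron transporter family, had no read under NO3- and 0.34, 0.256 and 0.243 CPM under NH4+, at least 1.69-fold higher by the same floor.

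Coumarins, phenolics that roots secrete to mobilise iron, showed a split within the pathway. The first enzyme, F6'H1 (AT3G13610), had 272, 242 and 269.6 CPM under NO3- and 924, 941 and 976 CPM under NH4+, a rise of 1.86 ± 0.29 with no overlap (edgeR adjusted p = 0.00125). AT1G28680, coumarin synthase, rose by 1.26 and CCOAOMT1 (AT4G34050), which methylates caffeoyl-CoA, by 1.29. The last steps fell, AT3G12900 (1 of 6) (scopoletin 8-hydroxylase) by 2.91 and CYP82C4 (AT4G31940, 3 of 6) (fraxetin 5-hydroxylase) by 2.95. They went from 14.6 ± 5.87 CPM under NO3- to 1.92 ± 2.97 CPM under NH4+ and from 6.12 ± 2.08 CPM under NO3- to 0.782 ± 0.554 CPM under NH4+, and in the fits without 1 library the count of lower members ranged from 0 to 2, reaching 2 only without the third NH4+ library.

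In the copper response list 2 of 8 genes fell, both of uptake, and the importer COPT1 (AT5G59030) was not called (log2 fold change 0.58 ± 0.46). COPT2 (AT3G46900), a copper importer of deficient roots, had 6.34, 4.04 and 4.99 CPM under NO3- and 0.292, 0.308 and 0.292 CPM under NH4+, and FRO5 (AT5G23990), a copper reductase, had 15, 8.82 and 10.9 CPM under NO3- and 0.292, 0.82 and 1.41 CPM under NH4+. Each was lower in all NH4+ libraries, by 4.08 ± 0.34 and 3.77 ± 0.56 on the log2 scale. FSD1 (AT4G25100), an iron superoxide dismutase, had 94.3, 80.3 and 115 CPM under NO3- and 26.9, 30.9 and 75.5 CPM under NH4+ and was called only with the replicate block (edgeR adjusted p = 0.0104, log2 fold change -1.26).

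**Figure D2:**
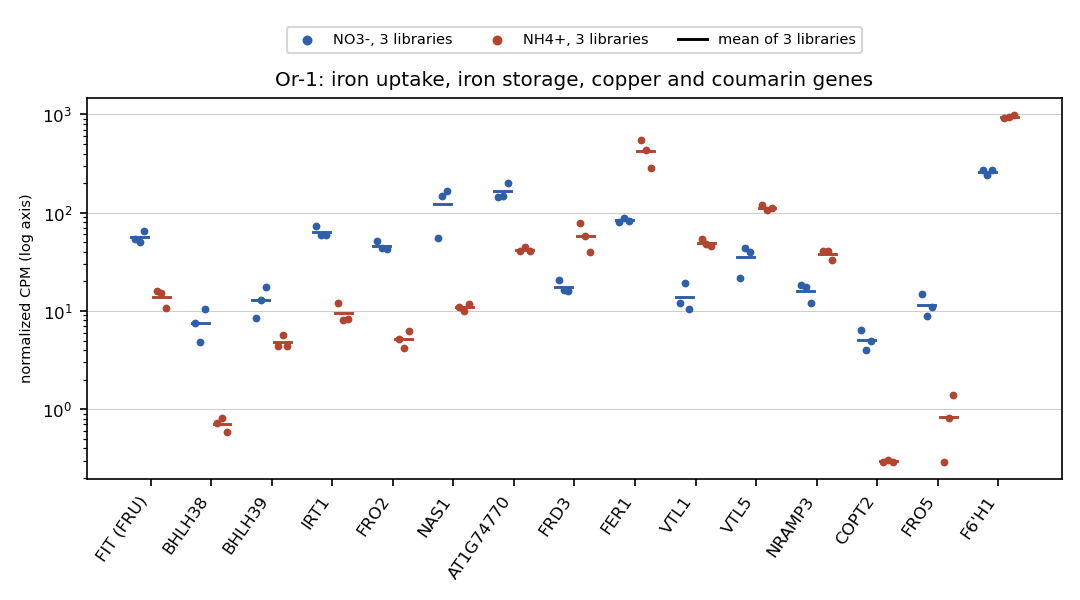
Normalized CPM (log axis) of iron uptake, iron storage, copper and coumarin genes, with the 3 NO3- and the 3 NH4+ libraries of Or-1 as points and short lines at the group means. Iron uptake genes, their regulators, COPT2 and FRO5 were lower in all 3 NH4+ libraries, and FRD3, FER1, VTL1, VTL5, NRAMP3 and F6'H1 were higher in all 3.

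RNA of the sulfate importers SULTR1;1 and SULTR1;2 fell under NH4+. That solution held more sulfate, and a part of sulfate in these falls was not tested. SULTR1;1 (AT4G08620) went from 82.4 ± 20.9 CPM under NO3- to 14.4 ± 1.79 CPM under NH4+ and SULTR1;2 (AT1G78000) from 256 ± 54.3 CPM under NO3- to 62.8 ± 8.48 CPM under NH4+, both high-affinity importers of the root surface. SULTR2;1 (AT5G10180, 3 of 6), a low-affinity transporter of the stele, rose by 2.83, the ATP sulfurylases APS1 (AT3G22890, 2 of 6) and APS3 (AT4G14680) by 1.01 and 1.47, and LSU1 (AT3G49580), a marker of sulfur deficiency, was at least 7.06-fold higher at only 0.729, 0.974 and 1.8 CPM. In all 4 of 16 rose and 2 fell, and the count of higher members dropped to 2 without the first or the third NO3- library. The median of the list was 0.02 and turned to -0.02 under upper-quartile scaling.

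In the phosphate starvation list 3 of 18 genes fell, all of them transport genes. PHO1 (AT3G23430), which exports phosphate to the xylem, had 1408, 1928 and 1797 CPM under NO3- and 540.2, 660.3 and 669.8 CPM under NH4+, a fall of 1.46 ± 0.17 without overlap (edgeR adjusted p = 0.000177). The importers PHT1;1 (AT5G43350) and PHT1;2 (AT5G43370) fell by 1.91 and 2.05, and their sequences are close enough that reads may be split between them. PHO1, SKOR and NPF7.3 all act in xylem loading, as does FRD3, which rose, and markers of the xylem were lower too. Of 7 xylem markers 4 fell and all 7 had negative estimates. Their summed level was 434 to 534 CPM under NO3- and 184 to 217 CPM under NH4+, with no marker at 0 throughout, and their part in the falls of PHO1, SKOR and NPF7.3 was not tested. IRX5 (AT5G44030), a cellulose synthase of secondary walls, fell by 1.86 and the protease XCP2 (AT1G20850, 5 of 6) by 1.06. The factors VND6 (AT5G62380, 1 of 6) and VND7 (AT1G71930, 2 of 6), which start vessel differentiation, were called at low levels, and 2 or 3 of the markers were called when 1 library was left out, 2 of them without the second or the third library of either group. VND7 was also lost with the replicate block (edgeR adjusted p = 0.0612).

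The list of mitochondrial enzymes that bypass energy conservation, which also holds the stress protein BCS1, had 4 of 7 higher and a median of 1.85. BCS1 (AT3G50930), an AAA ATPase and not a bypass enzyme, had 25, 45.1 and 13.2 CPM under NO3- and 102, 115 and 112 CPM under NH4+, a rise of 1.98 ± 0.36. The NAD(P)H dehydrogenases NDB2 (AT4G05020) and NDA2 (AT2G29990) rose by 1.92 and 1.85, and the alternative oxidase AOX1A (AT3G22370, 4 of 6) by 1.65, each without overlap between the groups. Hypoxia genes did not share this direction. 14 of 16 had negative estimates and 1 was called, HB1 (AT2G16060), a hemoglobin that removes nitric oxide and is also induced by NO3-, which fell from 959 ± 22.6 CPM under NO3- to 233 ± 85.3 CPM under NH4+.

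Carbon supply held few calls. NADP-ME2 (AT5G11670), the cytosolic malic enzyme, rose from 994 ± 63.8 CPM under NO3- to 2343 ± 194 CPM under NH4+ and was the only call among 13 genes of carbon skeleton supply. Of 15 sugar genes 1 rose, the hexose importer STP13 (AT5G26340), by 2.3. 3 fell, STP14 (AT1G77210) by 2, the vacuolar fructose carrier SWEET17 (AT4G15920, 4 of 6) by 1.4 and the vacuolar invertase AT1G62660 (4 of 6) by 1.08, and without the third NO3- library only 1 of them was called. PCK1 (AT4G37870, 5 of 6), phosphoenolpyruvate carboxykinase, was among the called genes with the highest read share and rose from 809 ± 70.9 CPM under NO3- to 1675 ± 228 CPM under NH4+.

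**Figure D3:**
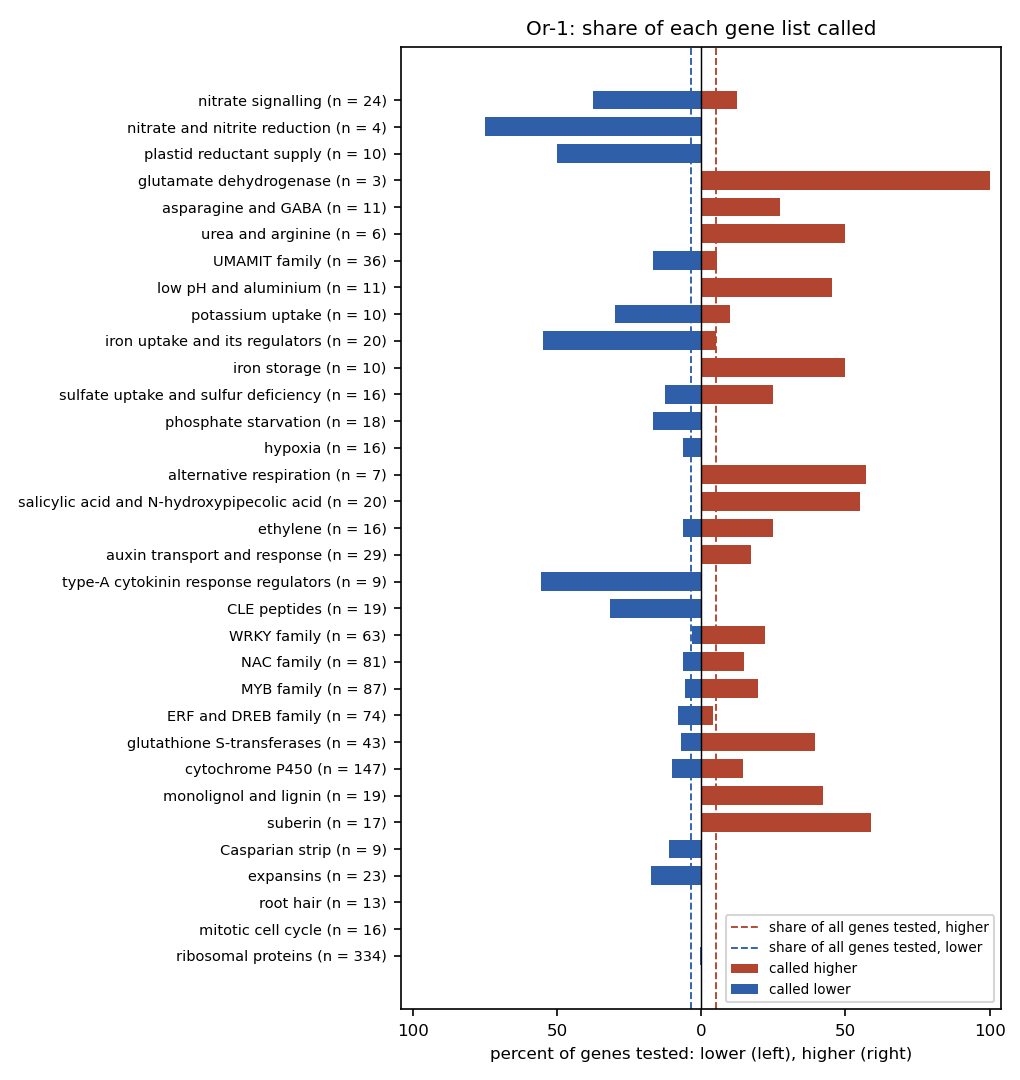
Percent of the tested genes of each list that were called lower (bars to the left) and higher (bars to the right) in Or-1, with the number tested in brackets. Dashed lines mark the shares over all tested genes, 3.6% lower and 5.26% higher, and the longest bars to the right include glutamate dehydrogenases, suberin and alternative respiration.

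Type-A response regulators are induced by cytokinin and damp its signal. Of the 9 tested, 5 fell, all 9 had negative estimates, and the median was -1.42. ARR5 (AT3G48100) had 23.2, 33.8 and 45.5 CPM under NO3- and 6.32, 5.33 and 8.02 CPM under NH4+, and ARR9 (AT3G57040) had 23.5, 36.5 and 57.5 CPM under NO3- and 6.13, 6.82 and 10.02 CPM under NH4+. In both the groups did not overlap, and the falls were 2.38 ± 0.33 and 2.36 ± 0.36. ARR6 (AT5G62920) fell by 2.16, ARR8 (AT2G41310) by 1.42 and ARR4 (AT1G10470, 1 of 6) by 1.37, and ARR3 (AT1G59940) was called only with the replicate block (edgeR adjusted p = 0.0188). The summed level ran from 254 to 583 CPM under NO3- and from 128 to 158 CPM under NH4+.

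CLE peptides are small secreted signals, some of which respond to nitrogen supply and restrain lateral root growth through the receptor CLV1. 6 of 19 fell. The 6 were CLE1, CLE2, CLE4, CLE5, CLE6 and CLE7. CLE4 (AT2G31081) had 17.2, 13.1 and 14.1 CPM under NO3- and 0.292, 0.154 and 0 CPM under NH4+, CLE2 (AT4G18510) had 8.93, 12.2 and 10.8 CPM under NO3- and 0.681, 0.359 and 0.0972 CPM under NH4+ and CLE1 (AT1G73165) had 6.12, 3.99 and 5.29 CPM under NO3- and 0.194, 0.205 and 0.0486 CPM under NH4+. CLE6 (AT2G31085) and CLE5 (AT2G31083) had no read under NH4+, with 0.937, 4.25 and 2.29 CPM and 0.717, 1.17 and 0.794 CPM under NO3-, and were at least 16.2-fold and 5.81-fold lower by the floor of 3 reads per library, and CLE7 (AT2G31082) fell by 4.4. All 6 calls held in every fit that left out 1 library.

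**Figure D4:**
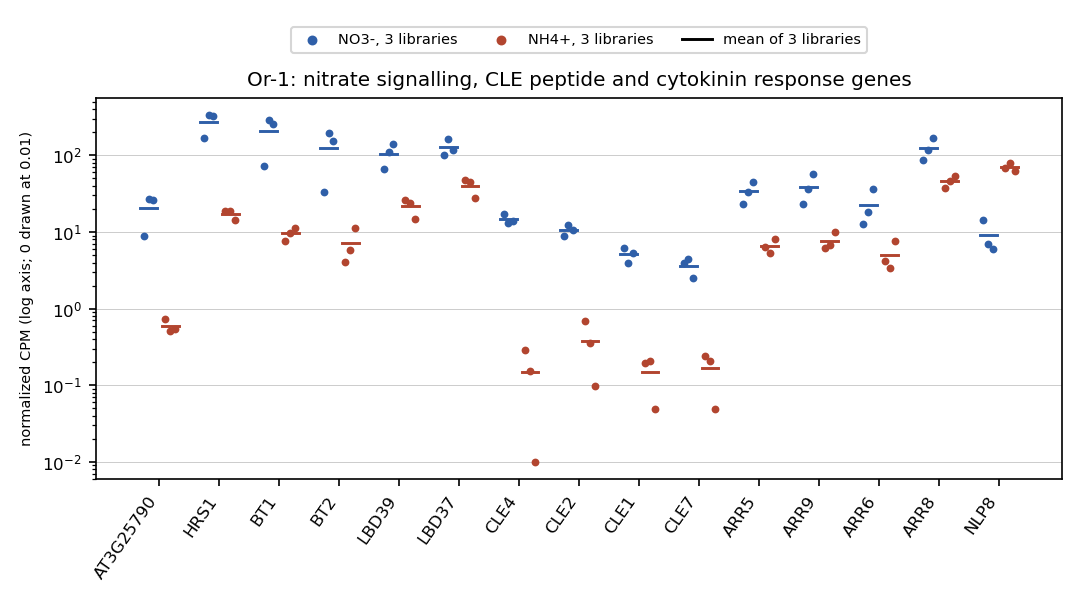
Normalized CPM (log axis) of NO3- signalling, CLE peptide and type-A response regulator genes, with the 3 NO3- and the 3 NH4+ libraries of Or-1 as points and short lines at the group means. Every gene shown except NLP8 was lower in all 3 NH4+ libraries, and NLP8 was higher in all 3.

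Salicylic acid and N-hydroxypipecolic acid, signals of pathogen defence, had 11 of 20 genes higher and a median of 1.22. In synthesis, ICS1 (AT1G74710), isochorismate synthase, rose by 1.56, its exporter EDS5 (AT4G39030, 3 of 6) by 1.1 and PBS3 (AT5G13320), which conjugates isochorismate, by 4.93. FMO1 (AT1G19250), the last enzyme of N-hydroxypipecolic acid, had 29.2, 29.7 and 23.1 CPM under NO3- and 209.6, 279 and 256 CPM under NH4+, and the rise of 3.18 ± 0.28 held in every library. ALD1 (AT2G13810), its first enzyme, rose by 4.53 ± 0.43, less than in Rak-2 (difference -4.57 ± 0.61, edgeR adjusted p = 0.00804), and AT5G52810, also named SARD4 and acting between them, rose by 1.85, more than in Rak-2 (difference 1.46 ± 0.19, edgeR adjusted p = 0.00804). The regulators CBP60G (AT5G26920) and SARD1 (AT1G73805, 5 of 6) rose by 2.64 and 1.35, the receptor NPR3 (AT5G45110) by 1.28 and EDS1 (AT3G48090) by 1.16. DLO1 (AT4G10500), a salicylic acid hydroxylase that removes the hormone, had 31.2, 43.3 and 74.2 CPM under NO3- and 232, 308 and 604 CPM under NH4+, so that synthesis and removal rose together.

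Other hormones had fewer calls. In the ethylene list 4 of 16 rose, the synthesis genes ACS11 (AT4G08040), ACS6 (AT4G11280) and ACO4 (AT1G05010) by 3.37, 1.58 and 1.23 and the response factor ERF1 (AT3G23240) by 2.2, and ACS5 (AT5G65800, 0 of 6) was called lower, from 1.77 ± 0.444 CPM under NO3- to 0.198 ± 0.0974 CPM under NH4+. 5 of 29 auxin genes rose, among them the conjugating enzymes GH3.3 (AT2G23170) and GH3.1 (AT2G14960) by 2.22 and 2.42 and the carrier PIN7 (AT1G23080, 5 of 6) by 1.05. That count fell to 3 without the second NH4+, the second NO3- or the third NO3- library. In the abscisic acid list 2 of 12 rose, the synthesis enzyme NCED5 (AT1G30100) by 3.74 and the phosphatase HAI1 (AT5G59220) by 2.19. 1 fell, CYP707A3 (AT5G45340), which breaks the hormone down, by 2.31. NCED5 had 0.165, 0 and 0.1765 CPM under NO3-, so the size of its rise rests on a few reads. Of 10 gibberellin genes 1 rose, GA2OX2 (AT1G30040), which inactivates the hormone, by 2.62. 1 fell, GA3OX1 (AT1G15550), which activates it, by 1.41. 2 of 21 jasmonate genes rose, the repressor JAZ1 (AT1G19180) by 1.14 and the catabolic enzyme CYP94C1 (AT2G27690) by 1.75.

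WRKY factors, which bind the W box printed above, had 14 of 63 tested members higher and 2 lower. WRKY55 (AT2G40740) had 2.54, 1.54 and 0.971 CPM under NO3- and 26.9, 29.4 and 46.7 CPM under NH4+ and WRKY70 (AT3G56400), a regulator of salicylic acid responses, had 2.92, 2.71 and 4.46 CPM under NO3- and 36.8, 47.6 and 64.2 CPM under NH4+. Every NH4+ library exceeded every NO3- library in both, with rises of 4.36 ± 0.36 and 3.87 ± 0.41. WRKY75 (AT5G13080), WRKY51 (AT5G64810), WRKY41 (AT4G11070) and WRKY45 (AT3G01970) rose by 2.91, 2.83, 2.62 and 2.49. WRKY33 (AT2G38470, 1 of 6), an activator of camalexin genes, had 157, 339 and 118 CPM under NO3- and 483, 593 and 549.7 CPM under NH4+. Its groups did not overlap, but the spread under NO3- was wide. WRKY22 (AT4G01250) fell by 2.07, and WRKY58 (AT3G01080, 2 of 6), the other lower member, was lost with the replicate block (edgeR adjusted p = 0.0561).

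The NAC list had 12 of 81 higher and 5 lower. Through its other name, NTL1, it also holds the transporter NPF4.6 (AT1G69850) of the NO3- uptake list, which was not called. NAC042 (AT2G43000), a longevity and camalexin regulator, had 11, 7.02 and 4.19 CPM under NO3- and 109, 111 and 139.96 CPM under NH4+, a rise of 4.03 ± 0.38 (edgeR adjusted p = 5.35e-05). NAC047 (AT3G04070) and ANAC029 (AT1G69490), both linked to leaf senescence, rose by 3.64 and 3.26, NAC036 (AT2G17040) by 3.54 and anac081 (AT5G08790) by 2.52. NAC080 (AT5G07680) fell from 38 ± 20.2 CPM under NO3- to 5.93 ± 3.03 CPM under NH4+ and ANAC072 (AT4G27410) by 1.8, and between 2 and 5 of the lower members were called when 1 library was left out. The MYB family had 17 of 87 higher and 5 lower. MYB122 (AT1G74080) and MYB51 (AT1G18570), activators of indole glucosinolate synthesis, rose by 3.07 and 1.82, MYB15 (AT3G23250), which activates lignin genes in defence, by 1.71, and MYB48 (AT3G46130) fell from 132 ± 51 CPM under NO3- to 19.6 ± 4.56 CPM under NH4+. Its relative MYB59 (AT5G59780, 2 of 6), a regulator of potassium and nitrate transport to the shoot, went from 338 ± 125 CPM under NO3- to 131 ± 58.4 CPM under NH4+, and between 1 and 3 of the lower MYB genes stayed called when 1 library was left out. The ERF and DREB list, in which some factors answer ethylene and drought, also holds AP2-type factors and the ubiquitin ligases DRIP1 and DRIP2. It had 3 of 74 higher and 6 lower, with the AP2-type factor SMZ (AT3G54990) among the lower. 6 were higher with the replicate block and 5 without the first NO3- library. AT5G61590 fell from 69.5 ± 31.3 CPM under NO3- to 16.2 ± 4.45 CPM under NH4+ and AT4G13620 by 2.75, whereas AT2G33710 rose by 2.62.

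Among detoxification genes, glutathione S-transferases and UDP-glycosyltransferases were called mostly higher and cytochromes P450 moved both ways. 17 of 43 glutathione S-transferases, which attach glutathione to reactive compounds, were higher and 3 lower, with a median of 0.6. GSTU24 (AT1G17170) had 8.88, 6.38 and 4.9 CPM under NO3- and 74.8, 83.5 and 66.1 CPM under NH4+ and GSTU22 (AT1G78340) had 7.77, 7.07 and 7.68 CPM under NO3- and 94.3, 92.2 and 89.6 CPM under NH4+, rises of 3.48 ± 0.41 and 3.61 ± 0.15 with clear separation. GSTF2 (AT4G02520) and GSTF3 (AT2G02930) rose by 2.47 and 2.98 and GSTF6 (AT1G02930) and GSTF7 (AT1G02920) by 1.97 and 2.46, and the members of each pair are near-identical copies among which reads may be split. GSTF14 (AT1G49860) fell, from 420.1 ± 175 CPM under NO3- to 39.3 ± 3.84 CPM under NH4+. Of 43 UDP-glycosyltransferases 8 rose, UGT73B2 (AT4G34135) by 3.27 and UGT73B4 (AT2G15490) by 2.63, and 1 fell. Among 147 cytochromes P450 21 rose and 15 fell, with a median of -0.08. CYP81F2 (AT5G57220), which modifies indole glucosinolates, had 36.9, 33.5 and 12.8 CPM under NO3- and 212, 234 and 314 CPM under NH4+, a rise of 3.19 ± 0.51, and CYP71B2 (AT1G13080) had 43.7, 58.7 and 60.01 CPM under NO3- and 5.11, 7.18 and 6.13 CPM under NH4+, a fall of 3.14 ± 0.25.

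Redox and defence genes were also called mostly higher. 7 of 20 genes of reactive oxygen signalling rose, ZAT10 (AT1G27730), a zinc finger repressor, by 1.95, GSH1 (AT4G23100), the first enzyme of glutathione synthesis, by 1.12 and APX1 (AT1G07890, 5 of 6), cytosolic ascorbate peroxidase, from 797 ± 92.7 CPM under NO3- to 1678 ± 169.8 CPM under NH4+. 7 of 59 genes annotated as peroxidases, nearly all of the secreted class III, rose and 3 fell, 11 and 3 with the replicate block. DOX1, a fatty acid dioxygenase that carries this annotation but is not of class III, is 1 of the higher genes in both counts. AT4G36430 went from 118 ± 46.1 CPM under NO3- to 496 ± 184 CPM under NH4+ and PRX52 (AT5G05340) from 6.37 ± 2.54 CPM under NO3- to 35.4 ± 4.47 CPM under NH4+, while AT3G01190 went from 621 ± 78 CPM under NO3- to 215 ± 30.6 CPM under NH4+. Nitrilases rose in 3 of 4, NIT4, NIT2 (AT3G44300) by 2.61 and NIT1 (AT3G44310, 1 of 6) by 1.12, and without the call of NIT1, which was also lost with scaling by library size alone or by the upper quartile, with a test against the fold threshold (glmTreat) and in a fit of the 6 Or-1 libraries only, 2 were higher. NIT1 to NIT3 share near-identical sequence, so their reads may be split. Glucosinolate synthesis had 5 of 20 higher, all 5 of them on the indole side: MYB51, MYB122, CYP81F2, CYP79B2 (AT4G39950) (2.54) and SOT16 (AT1G74100) (1.29).

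Suberin, the lipid and phenolic barrier of the endodermis, was one of the lists with the largest share of calls, 10 of 17 higher and a median of 1.26. KCS2 (AT1G04220), which elongates its fatty acids, had 21.8, 39.4 and 55.2 CPM under NO3- and 178, 205 and 169 CPM under NH4+, and CYP86B1 (AT5G23190), which hydroxylates them, had 18.7, 22.8 and 35 CPM under NO3- and 111, 134 and 95.6 CPM under NH4+. The NO3- libraries were below the NH4+ libraries in both, and the rises were 2.25 ± 0.32 and 2.15 ± 0.22 (edgeR adjusted p = 0.000795 and 9.85e-05). The acyltransferases GPAT5 (AT3G11430) and ASFT (AT5G41040) rose by 1.26 and 1.48, the exporters ABCG6 (AT5G13580) and ABCG20 (AT3G53510) by 1.69 and 1.44, and the hydroxylase CYP86A1 (AT5G58860, 3 of 6) by 1.02. The factors MYB9 (AT5G16770), MYB41 (AT4G28110) and MYB39 (AT4G17785, 2 of 6), which activate suberin genes, rose by 1.94, 1.88 and 2.05. The Casparian strip, the lignin seal of the same cells, did not follow. 1 of 9 genes fell, CASP4 (AT5G06200, 5 of 6), by 1.03, and it was not called without the third NO3- library.

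Monolignol genes rose in 8 of 19, with a median of 0.76. PAL1 (AT2G37040) and PAL2 (AT3G53260), which open the pathway, went from 423 ± 74.6 CPM under NO3- to 1301 ± 91.7 CPM under NH4+ and from 232 ± 22.8 CPM under NO3- to 788 ± 168 CPM under NH4+, 4CL1 (AT1G51680) rose by 1.5, HCT (AT5G48930) by 1.25 and CAD5 (AT4G34230) by 1.38. PAL1, PAL2 and 4CL1 rose more than in Rak-2, by 1.04 ± 0.21, 2.26 ± 0.35 and 1.2 ± 0.23 on the log2 scale (adjusted p of the difference by edgeR 0.036, 0.0127 and 0.0316).

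Wall-loosening genes moved both ways. 5 of 28 xyloglucan endotransglucosylases rose and 2 fell, 5 and 4 with the replicate block. XTH24 (AT4G30270) had 44.8, 27 and 23.7 CPM under NO3- and 438, 477 and 315 CPM under NH4+ and XTH22 (AT5G57560) had 24.6, 24 and 13.2 CPM under NO3- and 199, 211 and 146 CPM under NH4+, rises of 3.69 ± 0.37 and 3.17 ± 0.24 with no overlap. XTH21 (AT2G18800) fell by 2.9. The count of higher members fell to 3 without the second NH4+, the second NO3- or the third NO3- library. Expansins, which loosen walls during growth, fell in 4 of 23. EXPA17 (AT4G01630), an expansin of lateral root emergence, had 41.4, 17.2 and 31.2 CPM under NO3- and 5.2, 2.46 and 1.17 CPM under NH4+, a fall of 3.34 ± 0.52, and EXPA14 (AT5G56320) fell by 2.26. Without any one of the 3 NH4+ libraries 2 expansins stayed called, and with the replicate block 6 were called.

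Growth and cell identity lists held few calls. The edgeR test called none of 16 mitotic genes, 15 replication genes, 13 root hair genes or 16 heat shock genes. At an unadjusted p under 0.05 these lists held 0, 0, 3 and 5 genes, and DESeq2 and limma-voom each called 1 root hair gene lower and no gene of the other 3 lists. Every mitotic gene had a negative estimate, with a median of -0.17. Of 334 ribosomal protein genes 291 had negative estimates, with a median of -0.27, but 1 rose and 2 fell, 5 without the first NH4+ library. The 6 phloem and 4 root cap markers had no call by edgeR, with 1 and 0 at an unadjusted p under 0.05, and DESeq2 called 1 phloem marker higher. The 2 cortex markers summed to 61.1 to 119 CPM under NO3- and 11.4 to 47.3 CPM under NH4+, and both were called lower only with the replicate block. WER (AT5G14750, 2 of 6), which specifies hairless epidermis, went from 6.48 ± 2.14 CPM under NO3- to 2.12 ± 0.837 CPM under NH4+. Morning genes of the clock had 2 of 8 lower, AT3G54500 (3 of 6), the clock coactivator LNK2, and PRR9 (AT2G46790, 0 of 6), by 1.71 and 1.37. All 8 estimates were negative, between 0 and 3 of these genes were called when 1 library was left out, and with the replicate block 3 were lower, since PRR9 was lost (edgeR adjusted p = 0.0547) and CCA1 (AT2G46830) and RVE4 (AT5G02840), both MYB-like factors of the dawn, were gained (edgeR adjusted p = 0.0372 and 0.0453).

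By read share, the called genes at the top of each direction were of other kinds. After NADP-ME2 came the glutathione transferase GSTF2, CCOAOMT1, DJ1A (AT3G14990), a glyoxalase-type protein, from 844 ± 105 CPM under NO3- to 2031 ± 213 CPM under NH4+, and AT1G26240, an extensin-like wall protein, from 400.4 ± 48.8 CPM under NO3- to 1869 ± 756 CPM under NH4+. DOX1 (AT3G01420), a dioxygenase of fatty acids, had 313, 257 and 285 CPM under NO3- and 1890.4, 1657 and 1659.6 CPM under NH4+, and GLP9 (AT4G14630), a germin-like protein, had 436, 476 and 583 CPM under NO3- and 1055, 1246 and 1704 CPM under NH4+. Among the genes that fell, MT1A (AT1G07600), a metallothionein, had 1826, 2461 and 3170.1 CPM under NO3- and 702, 1155 and 1242 CPM under NH4+, and SAG21 (AT4G02380), a late embryogenesis abundant protein of senescence, had 1565, 1612 and 1578 CPM under NO3- and 379, 651 and 499 CPM under NH4+. In each of these 4 the groups were apart. The water channels PIP1A (AT3G61430), PIP1B (AT2G45960), PIP2A (AT3G53420), PIP2B (AT2G37170) and GAMMA-TIP (AT2G36830) fell by between 1.42 and 2.18 on the log2 scale, and closely related PIP genes may share reads.

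Rak-2 offers the comparison by which an Or-1 change can be called different. A difference of response was called in 237 of the 19327 genes (1.23%) by the edgeR quasi-likelihood test of the interaction, and 184 of them were among the 1712 called in Or-1. Of the 1712, 1468 had the same sign in Rak-2, 673 were called in both ecotypes in the same direction and 9 in opposite directions. The matching shares over all tested genes are not given here, so these counts have no background beside them. In 164 of the 184 the rise was larger in Or-1, and in 18 the fall was stronger. These 184 were picked by a call in Or-1, a choice that itself favours larger changes in Or-1. The count of 237 dropped to 73 without the second NH4+ library of Or-1, to 127 without the third and to 129 without the third NO3- library. Of the 237, 87.8% were more positive in Or-1, against 75.3% when library size alone was used for scaling. The coefficient of variation between replicates, as edgeR's common estimate, was widest in Rak-2 under NO3-, at 0.343. It was 0.158 in Rak-2 under NH4+, 0.241 in Or-1 under NO3- and 0.223 in Or-1 under NH4+. No fit left out a Rak-2 library, so the dependence of the differences on any of them was not tested. The iron, suberin, CLE and type-A regulator lists held 0 genes whose difference edgeR called. An unadjusted p under 0.05 for the difference was found in 7, 2, 7 and 0 of their genes, and DESeq2 called 2, 0, 2 and 0 and limma-voom none. Their Rak-2 medians were -1.63, 0.9, -0.24 and -1.22. The glutathione transferases held 7, the cytochromes P450 10 and the glucosinolate list 5, all larger in Or-1.

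Several of the widest differences were in genes that were not called higher in Rak-2. The log2 fold change of NIT4 was 7.24 in Or-1 but 0.83 in Rak-2 (difference 6.41 ± 0.83, edgeR adjusted p = 0.00804). No Or-1 library under NO3- held more than 3 reads of NIT4, so the sizes of its Or-1 value and difference rest on a few reads. CYP71A13 had 6.61 and -1.23 (difference 7.84 ± 0.9, edgeR adjusted p = 0.00677), NAC042 4.03 and 0.53 (difference 3.5 ± 0.49) and CYP81F2 3.19 and -0.52 (difference 3.71 ± 0.69). The sizes for CYP71A13 also rest on a few reads in the Or-1 NO3- libraries. XTH24 rose by 3.69 against an estimate of 0.81 in Rak-2. Some differences ran the other way. NIA1, a nitrate reductase, fell by 1.64 in Or-1 against -3.93 in Rak-2, and ALD1 rose by 4.53 against 9.1.

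**Figure D5:**
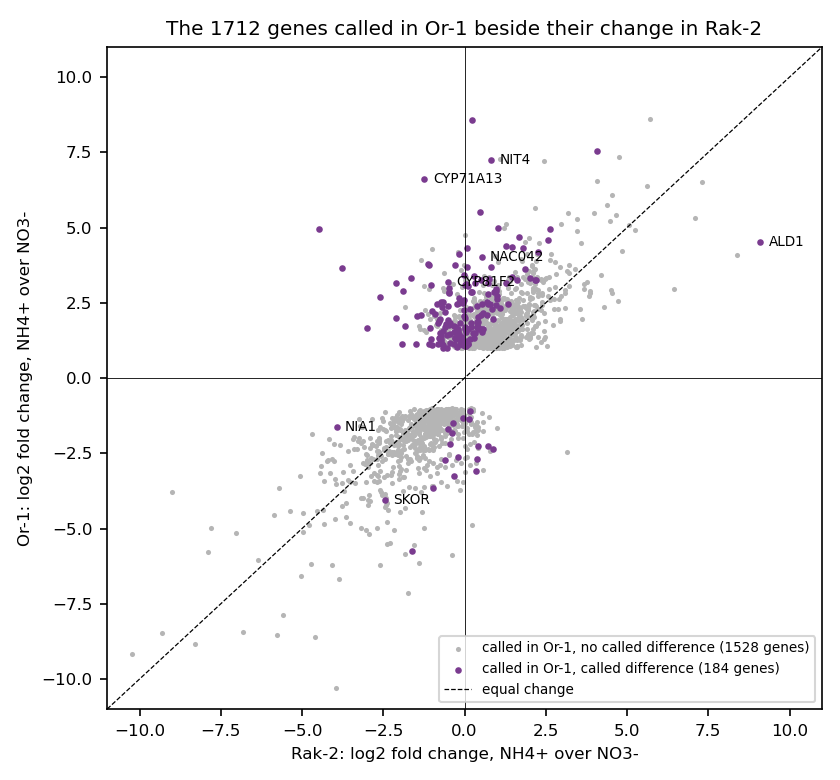
Log2 fold change (NH4+ over NO3-) in Or-1 on the vertical axis against that in Rak-2 on the horizontal axis for the 1712 genes called in Or-1, with the 184 whose difference of response was called in purple and a dashed line of equal change. Most purple points lie above the line at positive Or-1 values, the 164 larger rises in Or-1. All points were picked by a call in Or-1, which favours larger changes in Or-1.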

How the data were processed

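Libraries were made from total RNA of roots with the NEBNext Ultra kit and sequenced on an Illumina instrument, and whether the kit kept strand is not given in the sources used here. The authors deposited 1 table of whole-number counts per gene for 12 libraries, with a gene length column given in bases. The aligner, counter and genome build behind it are not given in the sources used here. The 3 tables of the authors' own comparisons hold fold changes and p-values and were not used.

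Counts of all 12 libraries were fitted in R 4.3.3 with edgeR 4.0.16 (TMM scaling, filterByExpr by group with at least 10 counts, 1 coefficient per group), tested with the quasi-likelihood F test and adjusted by Benjamini-Hochberg over 19327 genes. A call needed an adjusted p under 0.05 together with a change of more than 1 on the log2 scale in either direction. The difference of response is the interaction contrast in that fit. The standard error is the log2 fold change divided by the square root of F. Alternatives used DESeq2 1.42.0 and limma 3.58.1. A floor of 3 counts per library (0.154 CPM under NH4+ and 0.165 CPM under NO3-) gave the lower bounds of fold, and floors cover counting error only.

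Named genes are the 12 called genes with the largest rise and the 12 with the largest fall among those whose groups do not overlap and whose mean is at least 5 CPM in the higher group, the 10 called genes with the highest mean CPM in each direction, members of gene lists, and genes the study names. The members and lists were chosen with earlier results of these data known. Libraries with the same replicate number deviated together from their group means (correlations of 0.33, 0.30 and 0.46), so replicate number was taken to pair the libraries, and a fit with it as a block within ecotype was an alternative. P-values measure the spread between libraries, whose separate origin rests on the study's statement of biological replicates. Promoter sequences are from RefSeq (TAIR10.1) and matched 18850 of 19327 genes by locus. Gene models that overlap or lie antisense cannot be told apart without strand.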

Additional observations from a re-analysis of the deposited data

Results flagged for a closer look

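The genes below are those named in the text whose response to NH4+ differed between Or-1 and Rak-2 by the edgeR quasi-likelihood test of the interaction. Each value is the Or-1 log2 fold change minus that of Rak-2, and no cause of the differences was tested.

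Among indole and defence genes the difference was 7.84 for CYP71A13, 3.71 for CYP81F2, 3.25 for CYP79B2, 2.95 for MYB122 and 2.64 for MYB51. It was 6.41 for NIT4, 5.04 for AT4G37290 and 3.48 for AT2G41380. The sizes for CYP71A13, NIT4 and AT4G37290 rest on a few reads under NO3-, and CYP71A13 may share reads with CYP71A12. Salicylic acid and N-hydroxypipecolic acid genes split, with 1.46 for AT5G52810 and -4.57 for ALD1.

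Transcription factors with a larger rise in Or-1 were NAC042 (3.5), ANAC029 (2.75), NAC047 (1.79), WRKY55 (2.89) and WRKY45 (2.67). Detoxification genes were GSTF3 (3.45), GSTF6 (2.74), GSTF7 (2.69), GSTF2 (1.92), UGT73B4 (1.62) and UGT73B2 (1.07). The phenylpropanoid genes PAL2, 4CL1 and PAL1 had 2.26, 1.2 and 1.04, and the wall genes XTH24 and XTH22 had 2.88 and 1.91.

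In metabolism and transport the difference was 1.93 for ADC2, 1.46 for AHA3, 1.46 for STP13, 1.27 for GDH2 and 1.01 for ALS1. NIA1 fell less in Or-1, with a difference of 2.29, and NIA2, which was not called in Or-1, had 2.94. Stronger falls in Or-1 gave -4.14 for AT4G12520, -1.59 for SKOR and -1.19 for GAMMA-TIP.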

How the results depend on the processing

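The 1712 calls became 594 when the fold threshold was tested with glmTreat and 3080 with the adjusted p alone, and lay between 1663 and 1958 under the other alternatives that kept all 6 libraries. Leaving out 1 library gave 1338 to 1629, lowest without the second NH4+ library. The 237 differences of response became 712 with DESeq2 and 6 with glmTreat, and leaving out 1 Or-1 library gave 73 to 308. Their share more positive in Or-1 was 79% with upper-quartile scaling, 75.4% with DESeq2 and 78.2% with the replicate block, under which 211 were called, and the cause was not tested. With the replicate block 1814 genes were called in Or-1, and the calls of 9 named genes changed, each given above. The block changed no other call among 238 named genes, a count that leaves out NIA2 and the glutamate dehydrogenases. Of the 238, 232 were called, 189 of them in all 6 fits with 1 library left out and 134 under every alternative that kept the libraries. No log2 fold change of the 238 reversed. The glmTreat test ended 98 of their calls, and no other alternative that kept the libraries ended more than 9. Of 780 list counts with 1 library left out, 80 moved by more than 1.5 times, and 112 of 1430 did under the other alternatives. With 3 libraries a group, genes with a few reads in one group rest on counting floors. The NH4+ medium held more sulfate, and reads of near-identical genes cannot be separated.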
